A study of Mus musculus with 9 samples.

Results

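The stefin A genes BC100530, Gm5483, Stfa1, Stfa2, Stfa3 and Stfa2l1 were followed in sorted cells of a mouse leukemia model by their gene names, which matched 6 of the 55401 genes in each expression table. They had been picked because they were high in these libraries, so that their levels and differences below are a description without a test. Stefins are small cytosolic members of the cystatin superfamily that bind the active site of papain-like cysteine proteases, above all the lysosomal cathepsins B, H, L and S. While humans carry a single stefin A gene, mice carry a cluster of close copies, and their transcripts are known from neutrophils and their precursors. The copies are alike enough that short reads cannot always be assigned to 1 of them.

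The cells were H9M leukemia cells, made from lineage-negative bone marrow of C57BL/6-Ly5.1 mice with a retroviral vector for Meis1 and Hoxa9. In all groups the cells also carried a lentiviral color-code vector, and each sample is 1 color-coded, clonally derived population (BC-D). Clones were pooled, injected into lethally irradiated C57Bl6/J mice with helper bone marrow, and sorted from the spleen as CD45.1+, EGFRt bright, cKit+ and CD11b dim or negative cells. Pre-malignant libraries came from 1 mouse sacrificed early, in which 38BC-D, 43BC-D and 33BC-D were minor populations. De novo expanded libraries came from these same populations after they had grown out, each in another mouse at its endpoint. For the stably expanded libraries, 34BC-D was sorted from the same 3 endpoint mice as the de novo expanded populations. A difference from the pre-malignant group therefore also carries the difference between mice and between times after transplantation, and one that involves the stably expanded group carries the clone, and these cannot be told apart. The labels tie each table column to a group but not to a clone or a mouse, so the libraries of a group are called 1 to 3, and these numbers do not link libraries between groups. The 2 expanded groups, although from the same mice, could therefore not be compared mouse by mouse. In bulk RNA, more cells of a kind and more RNA per cell cannot be told apart.

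Libraries held 10379739 to 15551196 reads on genes, of which the 6 stefin A genes took 7 to 417, so counting error is a large part of each value. Levels are given in reads and as CPM, the reads of a gene scaled to an equal total of reads on genes, where 1 read equals 0.0643 to 0.0963 CPM. Transcripts of the sorted markers were found in each group, with Ptprc (CD45) at 333 ± 22.4, 343 ± 38.1 and 333 ± 10.2 CPM in the pre-malignant, de novo and stably expanded libraries (SD, n = 3). Kit stood at 269 ± 21.6, 213 ± 66.6 and 218 ± 16 CPM, and Itgam (CD11b) at 44.0 ± 5.18, 40.2 ± 15.9 and 67.7 ± 15.6 CPM. Between stably expanded and pre-malignant libraries, neither Kit (log2 difference -0.30, limma adjusted p = 0.0795) nor Itgam (0.61, 0.0485) reached 2-fold, but their libraries did not overlap, and the part of these differences in the stefin A levels was not tested.

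The 6 genes spanned 298.582 kb of chromosome 16 (GRCm38.p6, chr16:36156811-36455392). Stfa2l1 (chr16:36156811-36161953), Gm5483 (chr16:36184212-36188111) and Stfa1 (chr16:36276951-36285373) lay on the plus strand, and BC100530 (chr16:36359382-36367748), Stfa2 (chr16:36403992-36408457) and Stfa3 (chr16:36450537-36455392) on the minus strand. The 3 plus-strand genes formed the left side of the cluster and the 3 minus-strand genes the right side, so that the copies faced each other. Their summed exon lengths were 419 bases for Stfa2l1, 1862 for Gm5483, 710 for Stfa1, 790 for BC100530, 471 for Stfa2 and 412 for Stfa3.

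Promoters from RefSeq (GRCm38.p6) matched all 6 genes, with Gm5483 listed as Cstdc4 and BC100530 as Cstdc5. The longest run of letters common to the 6 promoters was 13 bases, printed in capitals below with the 17 bases before it, because it lies next to the start site of genes that were high in the same libraries. It began 32 to 36 bases before the RefSeq start in 5 genes and 12 bases before it in BC100530. For Stfa1, BC100530 and Stfa2 the gene as counted started further upstream than in RefSeq. Their stretches below lie inside the gene coordinates given above. Each line is read 5′ to 3′ on the strand of the gene, at chr16:36156758-36156787 (plus) for Stfa2l1, chr16:36184163-36184192 (plus) for Gm5483, chr16:36277098-36277127 (plus) for Stfa1, chr16:36367570-36367599 (minus) for BC100530, chr16:36408383-36408412 (minus) for Stfa2 and chr16:36455414-36455443 (minus) for Stfa3.
Stfa2l1: aggaggagtttacagaaACCTTTAAAACCC
Gm5483: aggaggagtttacagatACCTTTAAAACCC
Stfa1: aggaggagctttcggatACCTTTAAAACCC
BC100530: aggaggagtttacagatACCTTTAAAACCC
Stfa2: aggaggagcttacagaaACCTTTAAAACCC
Stfa3: ggaggagcttacagataACCTTTAAAACCC
Gm5483 and BC100530, on opposite strands and far apart in the cluster, had the same 30 letters here.

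The run ACCTTTAAAACCC was held on either strand by 9 of 32851 RefSeq promoters of 300 bases (250 before and 50 after the start), or 0.0274%. The other 3 belonged to Csta3, Cstdc3 and Gm7260, which are named here as they are listed. The run was chosen from these 6 promoters, and its rarity elsewhere is therefore a description. Within it, TTTAAA was in 6 of 6 member promoters against 13.2% of all, whereas the TATA box letters TATAAA were in 0 of 6 against 13.6% of all. TTGCNNAA, letters found in sites of C/EBP factors, was in Stfa1 and BC100530 (10.8% of all promoters), and GAGGAA, a core of PU.1 sites, was in 6 of 6 (28.3% of all). All motifs were searched on both strands. The 6 genes are close copies, so matches in their promoters are not 6 separate observations to set against the share of all promoters. A match is no evidence of binding.

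The 120 bases before the start are shown for the member with the most reads, Gm5483 (chr16:36184092-36184211, plus), and for the one with the fewest, Stfa3 (chr16:36455393-36455512, minus), with the shared run in capitals.
Gm5483: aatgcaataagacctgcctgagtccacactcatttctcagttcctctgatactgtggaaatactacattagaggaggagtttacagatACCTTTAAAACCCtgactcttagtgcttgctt
Stfa3: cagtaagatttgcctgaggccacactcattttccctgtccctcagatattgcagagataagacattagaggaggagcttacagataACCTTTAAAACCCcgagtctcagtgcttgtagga
Over the 250 bases before the start, aligned pair by pair with gaps left out of the share, these 2 genes had 71.2% of 243 aligned bases identical (14 gap positions). Stfa1 and BC100530 had 96.1% of 229 (42 gap positions), and Stfa2l1 and Stfa2 92.3% of 246 (8 gap positions). The order of the pairs depends on how gaps are counted.

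Stretches of transcript were also shared. Of the 402 stretches of 38 bases (the read length) in the Stfa1 transcript, 53.0% also occurred in a transcript of another gene, and 179 of them occurred in BC100530. Stfa2l1 shared 35.0% of its 377 stretches, all of them with Stfa2, and Gm5483 shared 39.8%, nearly all with 2010005H15Rik (Csta2) and only 1 with a member. BC100530 shared 33.9%, Stfa2 26.2% and Stfa3 none of 375. These shares come from an older transcript set (GENCODE M1), were counted on single reads of 38 bases, and bear on how far a value belongs to 1 copy. How the counting treated reads with several matches was not given in the sources used here. In addition, 374 exonic bases of BC100530 overlapped the antisense gene Gm15845, which held 1 read in all 9 libraries.

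Gm5483 was the best covered member, with reads in 9 of 9 libraries. The pre-malignant libraries held 2, 3 and 3 reads (0.152, 0.205 and 0.203 CPM), the de novo expanded libraries 14, 12 and 21 (1.17, 0.772 and 1.37 CPM) and the stably expanded libraries 124, 119 and 21 (8.09, 8.15 and 2.02 CPM). Neither neighbouring pair of groups overlapped in CPM, and the lowest stably expanded library, library 3, lay above the highest de novo expanded one. The difference in mean log2(normalized count + 1) was 2.17 between de novo expanded and pre-malignant, 4.33 between stably expanded and pre-malignant, and 2.18 between stably and de novo expanded libraries. From the pooled reads, the stably expanded to pre-malignant ratio was 34.9 (95% counting interval 17.4 to 81.6). The exact intervals here and below cover counting error and not the spread between libraries.

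BC100530, a stefin A copy at the right side of the cluster, ranged from almost no reads to over 100. Its reads numbered 1, 1 and 0 in pre-malignant, 2, 9 and 19 in de novo expanded, and 91, 106 and 6 in stably expanded libraries, or 0.0759, 0.0685 and 0 CPM, 0.167, 0.579 and 1.24 CPM, and 5.94, 7.26 and 0.578 CPM. The pre-malignant libraries lay below all others, but stably expanded library 3 fell between the de novo expanded ones. The log2 differences, in the same order of comparisons, were 2.38, 4.72 and 2.38. The pooled ratio of stably expanded to pre-malignant reads was 107, and with 2 reads in the denominator its interval ran from 29.3 to 892.

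Stfa1, the gene for stefin A1, had 10, 8 and 0 pre-malignant reads (0.759, 0.548 and 0 CPM). The de novo expanded libraries had 5, 15 and 29 reads (0.417, 0.965 and 1.89 CPM) and the stably expanded libraries 83, 136 and 6 (5.42, 9.32 and 0.578 CPM). Stfa1 was the member whose groups overlapped in each comparison, since stably expanded library 3 lay below the pre-malignant library 1. The log2 differences were 1.6, 3.26 and 1.69, and the pooled stably expanded to pre-malignant ratio was 13.2 (8.17 to 22.7).

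Stfa2l1, a Stfa2-like copy at the left end, had 0, 3 and 4 pre-malignant, 2, 7 and 6 de novo expanded, and 49, 40 and 9 stably expanded reads. In CPM, these were 0, 0.205 and 0.270, then 0.167, 0.450 and 0.392, then 3.20, 2.74 and 0.867. The first 2 groups overlapped and the stably expanded libraries lay above both. The log2 differences were 1.05, 3.43 and 2.41, with a pooled stably expanded to pre-malignant ratio of 14.8 (6.92 to 37.8).

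Stfa2 and Stfa3 were close to the limit of detection. Stfa2 had 1, 0 and 0 reads in pre-malignant, 2, 0 and 4 in de novo expanded, and 11, 8 and 6 in stably expanded libraries. Its stably expanded values of 0.718, 0.548 and 0.578 CPM were the most even of the 6 genes, and lay above the other 6 libraries, which reached 0.261 CPM. Stfa3 had no read in the 6 pre-malignant and de novo expanded libraries and 5, 8 and 2 reads in the stably expanded ones (0.326, 0.548 and 0.193 CPM). Set against a floor of 3 reads over a group, the pooled Stfa3 level in the stably expanded libraries was 5.28-fold that of the pre-malignant ones. Against the de novo expanded ones it was 5.32-fold. The counting error of the stably expanded reads is not part of these ratios.

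**Figure D1:**
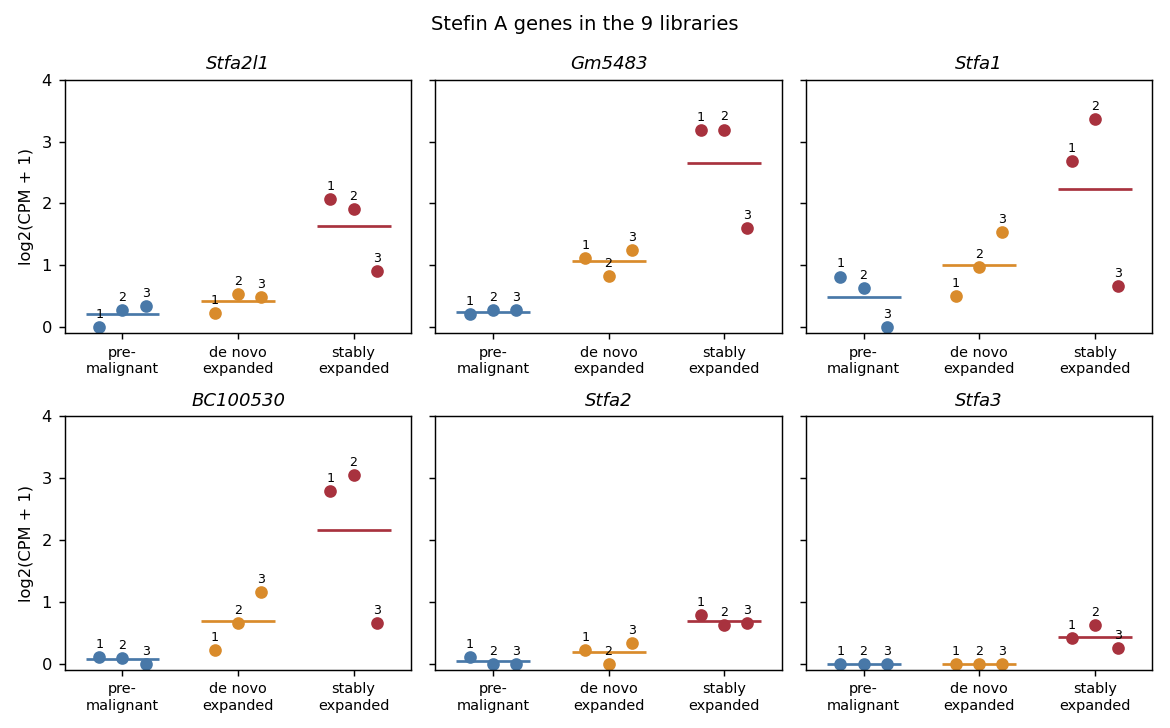
Level of each stefin A gene as log2(CPM + 1), with 1 point per library, numbered within its group, and a line at the group mean (n = 3). The stably expanded libraries 1 and 2 lie above the rest for Gm5483 (8.09 and 8.15 CPM), BC100530, Stfa1 and Stfa2l1, library 3 lies lower, and Stfa3 has reads only in the stably expanded libraries.

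Levels of different genes were compared per exon length, as CPM per kilobase of exon (RPKM). In the stably expanded libraries, the order of the mean levels was Stfa1 (7.19 ± 6.17 RPKM), BC100530 (5.81 ± 4.48), Stfa2l1 (5.41 ± 2.95), Gm5483 (3.27 ± 1.89), Stfa2 (1.31 ± 0.192) and Stfa3 (0.863 ± 0.436, SD, n = 3). The first 4 overlapped within their spread, whereas Gm5483 and Stfa2, and Stfa2 and Stfa3, differed by more than either SD, although the libraries of each such pair of genes overlapped. Gm5483, first by reads, thus came after Stfa1, BC100530 and Stfa2l1 per length, as its exons were the longest. This place depends on the length used. The 1 transcript of Gm5483 in GENCODE M1 had 414 bases against the 1862 used here, and that of Stfa1 439 against 710. The order of levels between genes is therefore not firm. The mean of Stfa1 was also the highest in the de novo expanded libraries, at 1.54 ± 1.05 RPKM, and in the pre-malignant libraries, at 0.613 ± 0.552 RPKM. Single libraries departed from these orders. In stably expanded library 3, Stfa2l1 (2.07 RPKM) lay above Stfa1 (0.814). In de novo expanded library 1, Gm5483 (0.627 RPKM) lay above Stfa1 (0.588), and pre-malignant library 3 had no Stfa1 read.

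Summed over the 6 genes, which leaves sharing of reads among them aside, the pre-malignant libraries held 1.06, 1.03 and 0.473 CPM, the de novo expanded 2.09, 2.77 and 5.16 CPM, and the stably expanded 23.7, 28.6 and 4.82 CPM. The group means were 0.854 ± 0.331, 3.34 ± 1.61 and 19.0 ± 12.5 CPM (SD, n = 3). Without stably expanded library 3, that group stood at 26.1 ± 3.45 CPM (n = 2). The pre-malignant libraries were below all others, while stably expanded library 3 was below de novo expanded library 3. The log2 differences of the sum, with their standard errors, were 1.87 ± 0.50, 4.09 ± 0.60 and 2.24 ± 0.68.

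A gene was called when limma on log2(normalized count + 1) gave a Benjamini-Hochberg adjusted p under 0.05 and at least a 2-fold difference, among genes whose normalized counts averaged 10 or more. For stably expanded against pre-malignant libraries, 4 members could be tested and 3 were called (Stfa2l1, BC100530 and Gm5483), beside 2.75% of the 13968 genes tested (384, with 168 or 1.2% higher and 1.55% lower). Without stably expanded library 3, Stfa1 was called as well, making 4, and without stably expanded library 1 only Gm5483 was, making 1. Leaving out pre-malignant library 1 or 2 or stably expanded library 2 left 2 calls, BC100530 and Gm5483. For de novo expanded against pre-malignant libraries, only Stfa1 reached the count limit and it was not called, beside 0% of 14195 genes (1597 or 11.3% had an unadjusted p under 0.05), and edgeR and DESeq2 called 0 members. For stably against de novo expanded libraries, 0 of 4 tested members were called (2 had an unadjusted p under 0.05, as had 4.83% of genes), beside 0.00727% of 13758 genes, and edgeR called 0 and DESeq2 1, Gm5483. As these contrasts were used to pick the genes, nothing is read from the counts.

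Libraries of the higher group lay wholly above the other for 5 of 6 members between stably expanded and pre-malignant (6.1% of all genes with a read did so), the exception being Stfa1. Of the 5 members with reads in the de novo expanded or pre-malignant libraries, it held for Gm5483 and BC100530, or 2 (4.29% of genes). Between stably and de novo expanded it held for 4 of 6, Stfa2l1, Gm5483, Stfa2 and Stfa3 (2.68% of genes). Some of these separations rest on very few reads. For Stfa3, stably expanded library 3 had 2 reads against 0, and for BC100530, de novo expanded library 1 had 2 against 1. Counts this small do not separate libraries beyond counting error. Among genes with enough reads to be tested, the shares were larger, at 16.1%, 10.6% and 4.66% in this order of comparisons. Of the tested members, it held for 3 of 4, 0 of 1 and 2 of 4. The comparisons share libraries pair by pair and do not bear on each other independently.

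The low stably expanded library 3 did not lower the members evenly. Libraries 1 and 2 exceeded it 9.37- and 16.1-fold for Stfa1 and 10.3- and 12.6-fold for BC100530, which share 179 stretches of transcript. For Gm5483 the ratios were 4.0 and 4.03 (intervals 2.51 to 6.69 and 2.52 to 6.75), and for Stfa2l1 3.69 and 3.16. For Stfa2 they were 1.24 and 0.948, both with intervals that include 1 (0.421 to 4.09 and 0.289 to 3.32). The Stfa1 interval for library 2 (7.22 to 44.7) lay above that of Gm5483, while the one for library 1 (4.13 to 26.3) overlapped it.

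The make-up of the stefin A reads therefore differed among libraries. Pooled over the stably expanded libraries, 31.8% of 830 reads came from Gm5483, 27.1% from Stfa1, 24.5% from BC100530, 11.8% from Stfa2l1, 3.01% from Stfa2 and 1.81% from Stfa3. Between libraries 1 and 2 of that group, Stfa1 differed beyond counting error, with 22.9% (exact 95% interval 18.6 to 27.5) and 32.6% (28.1 to 37.3). In library 3, with 50 reads, Gm5483 made up 42.0% (28.2 to 56.8) and Stfa1 and BC100530 12.0% each (4.53 to 24.3). The pre-malignant libraries held 36 reads together, too few for a firm share, with 50% of them from Stfa1 (32.9 to 67.1) and 5.56% from BC100530 (0.680 to 18.7). BC100530 took 20.4% (14.2 to 27.8) of the 147 de novo expanded reads, a share whose interval overlapped the pre-malignant one.

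**Figure D2:**
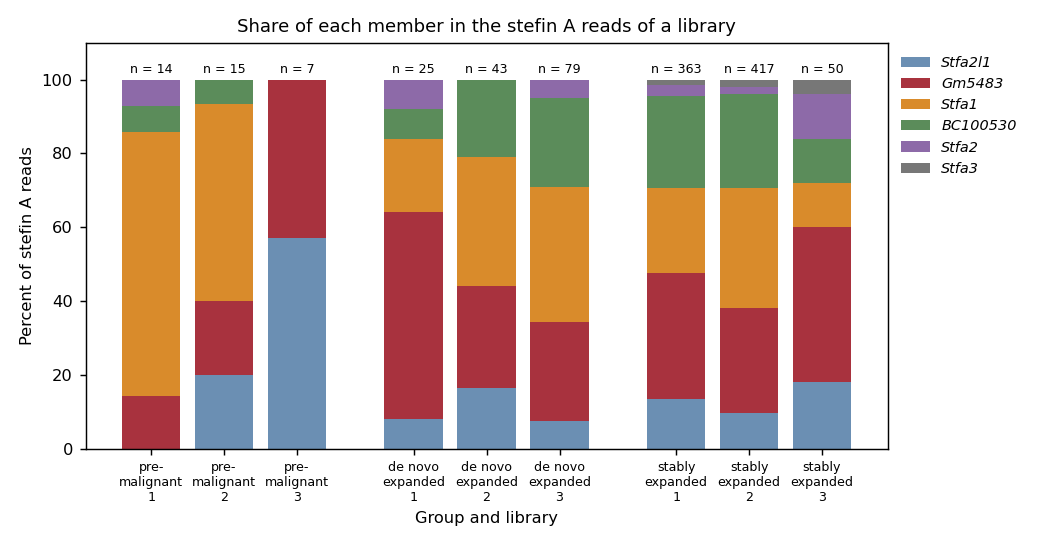
Percent of the stefin A reads of each library that fell on each gene, with the number of reads (n) above the bar. In stably expanded libraries 1 and 2 Stfa1 and BC100530 together exceed Gm5483, whereas in library 3 Gm5483 exceeds them (42.0%), while the pre-malignant bars rest on 7 to 15 reads.

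Over the 9 libraries, Pearson's r of log2(CPM + 1) between members ranged from 0.71 (Stfa1 and Stfa2) to 0.97 (Stfa1 and BC100530), as a description over libraries that fall into 3 groups. Gm5483 and Stfa2l1, whose transcripts shared no stretch of 38 bases, had r = 0.96.

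Between the outermost members, the tables placed 23 other genes, of which 11 had reads and 6 had more than 3 reads in a library. Gm10913, a predicted gene between Gm5483 and Stfa1, had 66, 73 and 75 reads in the pre-malignant, de novo and stably expanded groups and was even across them. AC154188.1, on the minus strand, had 22, 5 and 7 reads, 2010005H15Rik, a further stefin A copy, had 11, 4 and 13, and CT033776.1 had 13, 0 and 0. Gm5416, another stefin A-like gene, had 7, 0 and 3 reads, BC117090 had 1, 0 and 4, and Gm4758 had 4, 0 and 0. The higher reads of the endpoint groups were thus on the 6 members, which were picked for this, and not on Gm10913. Of 10 other names of stefin A-like genes looked for, 5 were in the tables. They reached at most 1.21 CPM together, in pre-malignant library 1, where the 6 members held 1.06 CPM. Among the names not found, Cstdc4, Cstdc5 and Csta2 are other names of Gm5483, BC100530 and 2010005H15Rik. Short predicted genes of 103 to 107 bases, 12 in number, held 1 read in all. One of them lay 60 to 107 bases past the 3′ end of each of 5 members and 11791 bases past that of Stfa3.

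**Figure D3:**
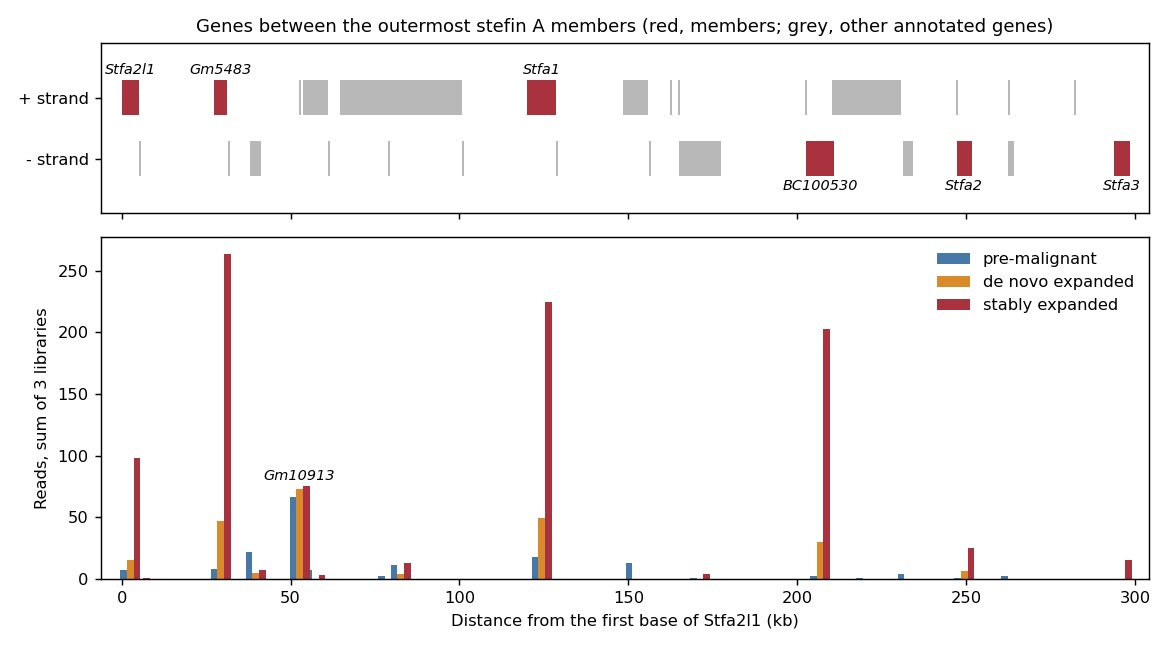
Upper panel, annotated genes by distance in kb from the first base of Stfa2l1 and by strand, members in red; lower panel, reads of each gene summed over the 3 libraries of a group. Tall stably expanded bars stand at Gm5483 (264 reads), Stfa1 (225) and BC100530 (203), whereas Gm10913 has 66, 73 and 75 reads in the 3 groups.

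Outside the cluster, the 4 nearest tested genes on each side lay 64691 to 372993 bases away. For stably expanded against pre-malignant libraries, the 8 genes ranged from a log2 difference of -1.01 to 0.72 with a median of 0.00, as in all genes tested (0.00). Slc15a2, a peptide transporter, was the 1 gene called, and fell by 1.01 on the log2 scale (limma, adjusted p = 0.0432). It was no longer called when any library but stably expanded library 3 was left out. Fam162a differed by 0.72 with an adjusted p of 0.0376, under the 2-fold limit. In the other comparisons limma, edgeR and DESeq2 called 0 of 8 flanking genes, with 2 of 8 under an unadjusted p of 0.05 between de novo expanded and pre-malignant (Slc15a2 and Eaf2) and 0 of 8 between stably and de novo expanded.

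The proteases that stefins bind did not show differences of this size. Of 10 cysteine cathepsins in a fixed list, 7 had enough reads to be tested, and limma, edgeR and DESeq2 called 0 in each of the 3 comparisons, with 1, 3 and 2 at an unadjusted limma p under 0.05 (11.3%, 25.4% and 4.83% of all genes tested). Their median log2 differences were -0.29 for de novo expanded against pre-malignant, -0.06 for stably expanded against pre-malignant and -0.08 for stably against de novo expanded libraries, where all tested genes had medians of 0.01, 0.00 and -0.00. Ctsb, a main stefin target, stood at 211 ± 57.8 CPM in the pre-malignant and 313 ± 34.6 CPM in the stably expanded libraries (log2 difference 0.61, limma adjusted p = 0.0585). Ctsl (9.43 ± 0.443 and 9.12 ± 1.49 CPM), Ctsh (74.2 ± 19.2 and 72.8 ± 13.3) and Ctsz (227 ± 19.3 and 229 ± 26.1) differed by less than their spread. Ctss, the cathepsin of antigen processing, had 49.9 ± 8.96 and 31.1 ± 11.4 CPM, and Ctsc, which activates granule serine proteases, 41.2 ± 14.0 and 22.9 ± 8.46 CPM (limma adjusted p = 0.0796 and 0.0713). Ctso, a less studied member, had 7.96 ± 1.78 and 6.72 ± 1.25 CPM, and Ctsk, Ctsf and Ctsw were at or under 0.360 CPM in each group mean. Leaving out stably expanded library 2 gave 1 call, Ctsc, against the pre-malignant libraries, and leaving out de novo expanded library 3 gave 1 call, Ctss, between the expanded groups.

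Other lysosomal proteases, which are not cysteine cathepsins but share their compartment or, for legumain (Lgmn), process them, gave 0 limma calls of 6, 5 and 6 tested, with 1, 4 and 1 at an unadjusted p under 0.05 (11.3%, 25.4% and 4.83% of all genes tested). Ctsd, an aspartic protease, stood at 106 ± 7.95 CPM in pre-malignant and 137 ± 19.8 CPM in stably expanded libraries. Ctse fell by 0.68 on the log2 scale (limma adjusted p = 0.0345), under the 2-fold limit.

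Of the 16 other cystatins listed, 3 had enough reads to be tested. Limma, edgeR and DESeq2 called 0 of them in each comparison, with 0, 1 and 0 at an unadjusted limma p under 0.05, against the same shares of all genes. Cstb (stefin B), the broadly expressed relative of the stefin A genes, had 13.4 ± 1.03, 12.1 ± 3.09 and 16 ± 1.97 CPM in the pre-malignant, de novo and stably expanded libraries (limma adjusted p = 0.402 between stably expanded and pre-malignant). Cst3 (cystatin C), the secreted inhibitor, had 119 ± 21.3, 131 ± 3.83 and 140 ± 18.2 CPM. Cst7 (cystatin F), an inhibitor stored in the lysosomes of immune cells, had 39.9 ± 3.21, 67.3 ± 31.0 and 72.5 ± 2.58 CPM, and its log2 difference of 0.87 between stably expanded and pre-malignant libraries had a limma adjusted p of 0.00346, below 2-fold. The other 13 were at or under 0.2 CPM in each group mean. In the stably expanded libraries the summed stefin A level of 4.82 to 28.6 CPM thus stood beside 206 to 241 CPM of the other cystatins.

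**Figure D4:**
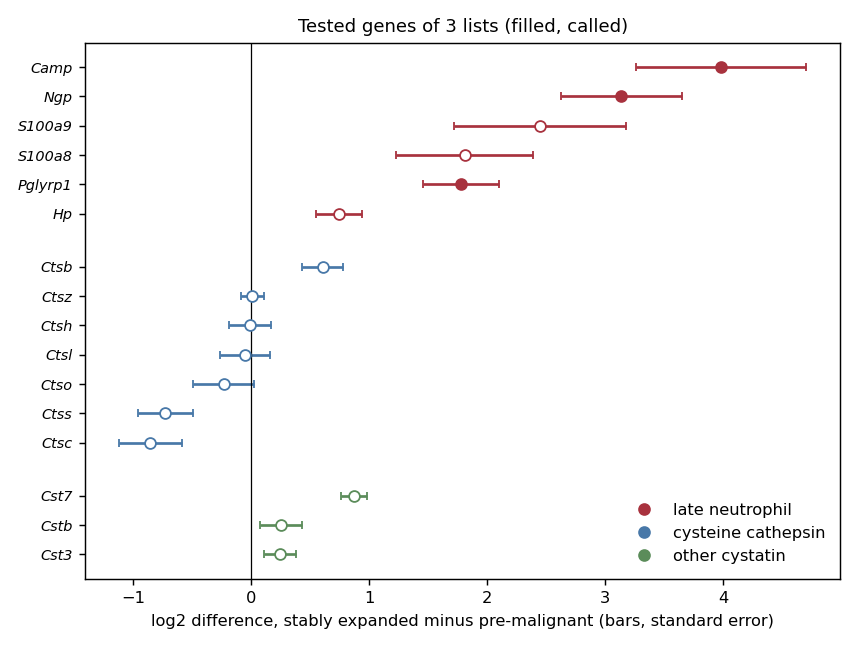
Log2 difference between stably expanded and pre-malignant libraries with its standard error (3 libraries a group) for the tested cysteine cathepsins, the tested other cystatins and the 6 tested late neutrophil genes of highest mean CPM; filled points were called by limma. Cathepsins lie from -0.85 (Ctsc) to 0.61 (Ctsb) and cystatins from 0.24 to 0.87, whereas Camp lies at 3.98 and Ngp at 3.14.

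Stefin A transcripts are known from maturing neutrophils, and genes of late neutrophil differentiation were therefore read in the same libraries, in a list of 21. In the stably expanded against the pre-malignant libraries, 9 of 16 tested were called higher and 0 lower (1.2% and 1.55% of all genes tested), with a median log2 difference of 2.13. Of the 16 differences, 14 were positive and 2 negative, those of Mmp8 (-1.06) and Il1r2 (-0.16). Mmp9, Ly6g, Retnlg, Ifitm6 and Mmp25 had too few reads to be tested and were at or under 0.691 CPM in each group mean. In a fit of all 9 libraries together 0 of the 9 calls were left. In the de novo expanded against the pre-malignant libraries limma and edgeR called 0 of 16 and DESeq2 1 (Chil3), with 2 at an unadjusted limma p under 0.05 (11.3% of all genes tested) and a median of 0.28. In the stably against the de novo expanded libraries limma, edgeR and DESeq2 called 0 (of 15 tested by limma), with a median of 1.88. An unadjusted limma p under 0.05 was reached by 9 of them (4.83% of all genes tested). Leaving out de novo expanded library 3 gave 7 calls, but the share of all genes called in that fit is not given, and nothing is read from them. Of the 6 genes with the highest levels, Camp, the cathelicidin of secondary granules, had a log2 difference of 3.98 (limma adjusted p = 0.0112), Ngp 3.14 (0.00794) and Pglyrp1, a peptidoglycan-binding protein, 1.77 (0.0114). S100a9 (2.44, limma adjusted p = 0.0647) and S100a8 (1.81, 0.0788) did not pass, and Hp, at 0.74, was below 2-fold.

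The summed late neutrophil level was 457, 467 and 454 CPM in the pre-malignant, 363, 460 and 1010 CPM in the de novo expanded, and 5332, 2463 and 902 CPM in the stably expanded libraries. The library with the least stefin A reads among the stably expanded ones, library 3, was also the lowest for this list, and the de novo expanded library with the most, also numbered 3, was the highest of its group. In stably expanded library 1 the late neutrophil sum was above that of library 2, while the stefin A sum was below it. The de novo expanded libraries 1 and 2 held 2.09 and 2.77 CPM of stefin A, and the pre-malignant libraries 0.473 to 1.06 CPM. The late neutrophil sum of these 2 libraries was not above the pre-malignant sums, but single genes of the list differed from it. Ltf (7.59 and 2.51 CPM) and Chil3 (6.76 and 25.8 CPM) lay above the pre-malignant libraries, which reached 2.12 and 3.72 CPM. Lcn2 (10.5 and 15.3 CPM) lay within their range (9.46 to 15.8 CPM). The part of late neutrophil cells or transcripts in the stefin A levels was not tested.

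Primary granule genes (Mpo, Elane, Prtn3 and Ctsg), made earlier in neutrophil development, followed another order in their sum, most of which was Mpo. Their sum was 7961 to 9346 CPM in the pre-malignant, 2933, 4157 and 20076 CPM in the de novo expanded, and 10720 to 12857 CPM in the stably expanded libraries. Limma called 0 of 4 in each comparison, with 0, 4 and 1 at an unadjusted p under 0.05 (11.3%, 25.4% and 4.83% of all genes tested). All 4 were higher in stably expanded than in pre-malignant libraries, below 2-fold. Their limma adjusted p was 0.00783 for Elane, 0.0268 for Ctsg, 0.0706 for Prtn3 and 0.152 for Mpo. Ctsg had 791 ± 218, 1017 ± 158 and 1299 ± 84.2 CPM in the pre-malignant, de novo and stably expanded libraries. The highest primary granule sum thus stood in de novo expanded library 3, with 5.16 CPM of stefin A, and not in the stably expanded libraries with over 20 CPM.

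**Figure D5:**
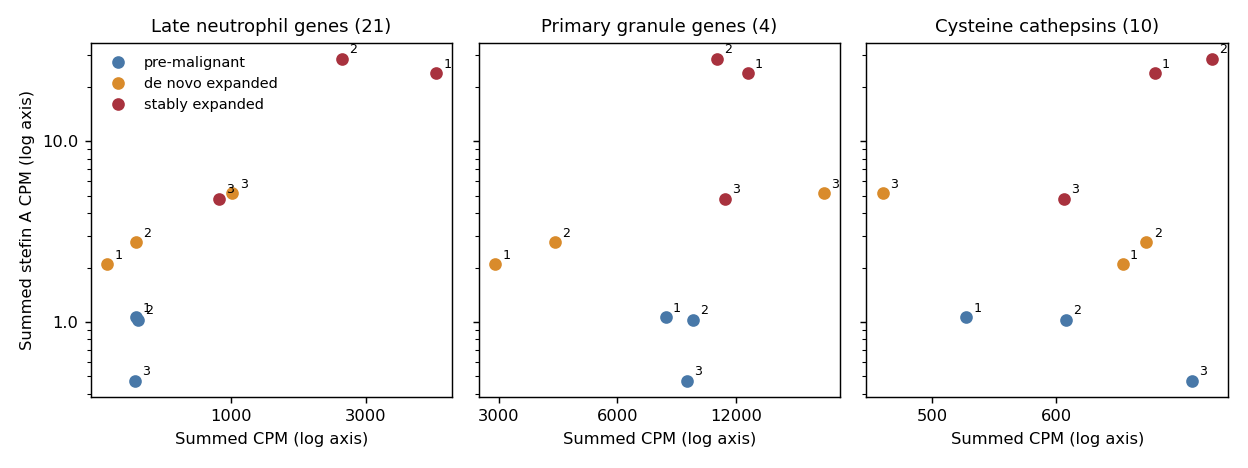
Summed stefin A CPM against the summed CPM of 3 gene lists in the 9 libraries, both axes logarithmic, with 1 point per library numbered within its group. Stefin A and late neutrophil levels are both highest in stably expanded libraries 1 and 2 (5332 and 2463 CPM of late neutrophil genes), whereas the primary granule sum peaks in de novo expanded library 3 (20076 CPM) and cathepsin sums span 465 to 754 CPM without following the groups.

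Markers of other cells were read in the same way. Mast cell and basophil genes summed to 6.93 to 18.4 CPM and T-cell genes to 0.522 to 3.08 CPM, and Mcpt4 was at 0 reads. Erythroid genes summed to 14.9 to 29.5 CPM in pre-malignant, 1.76 to 12.0 CPM in de novo expanded and 2.02 to 20.7 CPM in stably expanded libraries. Of these genes, limma called 0 of 4 tested in each comparison, with 2, 2 and 0 at an unadjusted p under 0.05 (11.3%, 25.4% and 4.83% of all genes tested). Macrophage genes summed to 54.8 to 243 CPM with overlapping groups. Of the eosinophil genes, Ear1 and Ear2 were at 0, whereas Prg2, also made by basophils and promyelocytes, was called higher in stably expanded than in pre-malignant libraries (log2 difference 4.55, limma adjusted p = 0.0117), with 0.420 ± 0.509 CPM in the pre-malignant and 7.55 ± 3.44 CPM in the stably expanded libraries. Prg2 passed the count limit only through the stably expanded libraries (mean normalized count 103 against 5.74) and was picked with its value known, so nothing is read from this call. Epx, the eosinophil peroxidase, had 14, 10 and 1 reads in the pre-malignant, de novo and stably expanded groups. Of 6 B-cell genes, 3 were called lower in stably expanded than in pre-malignant libraries (1.55% of all genes tested), and most of the list's sum was Ighm, with 215 ± 23.3 and 76.7 ± 7.81 CPM. Cd79b, of the same list, had 7.21 ± 2.71 and 14.1 ± 4.08 CPM (log2 difference 0.99, limma adjusted p = 0.0796).

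The genes outside the cluster whose log2(CPM + 1) most resembled that of the stefin A sum over the 9 libraries were ranked by Pearson's r among 13078 genes with a mean of at least 1 CPM. The median r was 0.03 and 28 genes exceeded 0.9. The highest were Serpinb1a (r = 0.97), an intracellular inhibitor of neutrophil serine proteases, Map3k9 (0.95), a kinase, AC125351.1 (0.94), the lactoferrin gene Ltf (0.94), Mcur1 (0.94), the chitinase-like Chil3 (0.94), Dnmt3l (0.93), the lipocalin Lcn2 (0.93), the thioredoxin Txn1 (0.93) and the NAD kinase Nadk (0.92). The pre-malignant libraries share their mouse and the stably expanded ones their clone, so the 9 points are not independent.

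Serpinb1a stood at 126, 121 and 136 CPM in pre-malignant, 146, 158 and 210 CPM in de novo expanded, and 272, 280 and 176 CPM in stably expanded libraries. Its range was narrow beside that of the stefin A sum, but stably expanded library 3 again lay below de novo expanded library 3. Ltf, a secondary granule protein, had 1.06, 2.12 and 0.405 CPM, then 7.59, 2.51 and 6.53 CPM, then 98.3, 36.0 and 4.53 CPM, a spread as wide as that of the stefin A genes. Chil3 had 3.34, 3.15 and 3.72 CPM in pre-malignant libraries, with the de novo expanded ones at 6.76, 25.8 and 15.0 CPM and the stably expanded ones at 103, 94.8 and 7.61 CPM.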

How the data were processed

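RNA-seq of 9 sorted populations (3 per group) was read from 3 tables, 1 per pair of groups, holding normalized counts deposited by the authors (a signal of read counts divided by DESeq2 size factors) together with fold changes and p-values of the authors' own comparisons, which were not used here. Per the labels and the study's methods, the authors prepared libraries with a stranded total RNA kit for low input and processed the reads with nf-core/rnaseq (Trim Galore 0.6.4, STAR 2.6.1d, featureCounts 1.6.4) on GRCm38.p6 with GENCODE annotation. The handling of multiply mapped reads was not given in the sources used here. Gene lengths (other deposited values) came from the same tables and gave RPKM.

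Whole reads were recovered from the steps of the normalized counts: in each library, all or all but 1 of 21618 to 30548 values above 0 were whole to within 0.05 reads, and tables that share a library gave the same reads. CPM used the sum of these reads (10379739 to 15551196 a library). Each comparison used limma 3.58.1 (trend in the empirical Bayes step) on log2(normalized count + 1) over its 6 libraries, for genes averaging 10 or more. On simulated counts with 200 genes changed 4-fold, the script called 165 of 200 tested (10 false calls) for de novo expanded against pre-malignant. It called 187 of 199 (3 false) for stably expanded against pre-malignant, and 167 of 197 (9 false) for stably against de novo expanded. The changed genes were drawn only from genes well above the count limit, where no member lay between de novo expanded and pre-malignant libraries. The recovery does not describe genes with as few reads as these. Alternatives were edgeR 4.0.16 with TMM and DESeq2 1.42.0 on the recovered reads, other pseudocounts and count limits, quantile normalization, 1 fit of all libraries and leaving out each library. With DESeq2 and edgeR on the recovered reads, 3 members each were called between stably expanded and pre-malignant libraries. Intervals of ratios and shares are exact 95% binomial intervals and, like the floor of 3 reads, cover counting error only. PCR duplicates can make them too narrow.

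The members and lists were chosen with earlier results of these data known. Genes named are the 6 members, other genes of the cluster, the 4 nearest tested genes on each side, tested cystatins and lysosomal proteases, up to 6 late neutrophil and primary granule genes of highest mean CPM, and the 10 genes most like the stefin A sum. Prg2, the other cell type markers and the late neutrophil genes named as lower or untested fall outside this rule and were chosen with their values known. The replicates are populations sorted from separate mice in the endpoint groups and separate clones of 1 mouse in the pre-malignant group. Sequences came from RefSeq promoters of GRCm38.p6. Stefin proteins were not used here.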

Additional observations from a re-analysis of the deposited data

How the results depend on the processing

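Depth limits most of what can be said: a count of 0 reads allows up to 3, which is 0.193 to 0.289 CPM, and the pre-malignant libraries held 36 stefin A reads in all. No log2 difference of a member changed sign under an alternative. Of these values under the alternatives, 125 moved by less than the spread between libraries and 13 by more, and the cause was not tested. Between stably expanded and pre-malignant libraries, the count of called stefin A genes, 3 in the report, was 1 in a fit of all 9 libraries together and 1 to 4 when a library was left out. In the same comparison, the late neutrophil calls went from 9 to 0 in the 9-library fit, the cathepsin calls were 0 to 1 without 1 library, the other cystatins gave 1 call without a fold limit, and the flanking genes gave 0 calls with a pseudocount of 5, 0 in the 9-library fit, 2 without a fold limit and 0 to 1 without 1 library. Between de novo expanded and pre-malignant libraries, the late neutrophil list gave 1 call with DESeq2 and 0 to 1 without 1 library. Between the expanded groups, DESeq2 called 1 stefin A gene, and leaving out 1 library gave 0 to 1 cathepsin and 0 to 7 late neutrophil calls. With the count limit raised to 50, no member was left to test. No paired analysis was possible because the table columns carry no clone, mouse or replicate number. The tests of other cystatins and flanking genes under these alternatives were added after the data were seen.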
